A study of Mus musculus with 75 samples.

Results

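Mouse embryonic stem cells that overexpress Rxra (Rxra-OE) were compared with cells carrying the vector (V-OE) over all genes of a table of raw RNA-seq counts. The comparison rests on 4 of the 75 samples of the series, chosen by their labels: 2 Rxra-OE and 2 V-OE libraries. Every group was made in the E14 line and differentiated for 24 h by withdrawal of LIF/2i and addition of 2 µM retinoic acid (RA), V-OE and WT included, so expression before RA was not measured. The series is about RA-dependent enhancers in early differentiation, and the overexpression table shows the RNA of RA-treated cells with more of a receptor. A further group of the same table, Rara-OE (n = 2), overexpresses the partner receptor Rara. Cells that lack Rxra (Rxra-KO, n = 2) and their wild-type control (WT, n = 2) come from a separate table. That table also holds cells that lack Rara (Rara-KO, n = 2) or both receptors (RARX-DKO, n = 2). Rara-KO and RARX-DKO were used only in the fit of that table and in its spread between replicates. The construct, its promoter and whether a line is 1 clone or a pool are not given in the sources used here. The replicates are called biological without a word on separate cultures, so p-values measure only the spread between these libraries.

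Libraries held 8352947 and 11453063 counts in Rxra-OE, and 8588226 and 10139113 counts in V-OE. Of 52535 entries, 16914 passed the filter on low counts and were tested. A gene close to silent in V-OE could pass it through Rxra-OE counts alone, so list counts and medians describe tested members only. Expression is given as CPM, the count relative to the TMM-scaled library size, and changes as the log2 fold change of Rxra-OE over V-OE (log2FC ± SE) with the adjusted p of edgeR's quasi-likelihood test. The SE was derived from that test, as the absolute log2FC divided by the square root of its F statistic. A gene is called when the adjusted p is under 0.05, and a number alone in parentheses after a gene is its log2FC. Replicates lay close together: the variance within Rxra-OE was 1.95 times the counting variance and that within V-OE 2.37 times, against 8.38 to 15.7 times in the groups of the knockout table. The test therefore called small changes, and the size of a change is given throughout. Counts of 4 Y-linked genes were 2 and 2 in Rxra-OE and 0 and 2 in V-OE, whereas Rxra-KO and WT libraries had 1051 to 1445. The median log2FC of single chromosomes lay between -0.1 and 0.01.

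RXRA is a nuclear receptor that binds DNA as a heterodimer with a retinoic acid receptor (RARA, RARB or RARG) at direct repeats of a short core site. RA binds the RAR partner, corepressors leave, coactivators are recruited, and target genes such as Rarb, the Cyp26 hydroxylases and the anterior Hox genes are switched on, while pluripotency genes are shut down. RXRs also pair with the LXR, PPAR, vitamin D and thyroid hormone receptors.

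The classical target of this heterodimer is the Rarb promoter, shown here because Rarb was among the genes called higher in Rxra-OE. The RefSeq promoter window (GRCm38.p6, chr14:16575427-16575726, minus strand, 5′ to 3′) reads as follows, with the 2 core sites of its direct repeat with a 5-base spacer (DR5) in capitals.

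Rarb promoter: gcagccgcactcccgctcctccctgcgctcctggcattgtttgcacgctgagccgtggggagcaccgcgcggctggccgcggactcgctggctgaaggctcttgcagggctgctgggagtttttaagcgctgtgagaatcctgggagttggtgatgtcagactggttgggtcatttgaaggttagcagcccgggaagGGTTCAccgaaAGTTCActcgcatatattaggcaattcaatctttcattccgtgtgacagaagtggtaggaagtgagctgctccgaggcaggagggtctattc

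The first base of this element lies 53 bases before the transcript start. Core sites were searched as AGGTCA or AGTTCA or GGGTCA or GGTTCA, in any pairing and on both strands of the windows from 250 bases before to 50 after the start, which were available for 11367 of the 16914 tested genes. Among genes called at least 2-fold higher a DR5 stood in 2 of 1436 windows (0.139%), those of Rarb and the receptor gene Prokr2, and among those called at least 2-fold lower in 1 of 822 (0.122%), that of Syndig1, against 4 of all 11367 (0.0352%). A spacer of 2 bases was found in 0.139% of rises, 0% of falls and 0.044% of all windows, and a spacer of 1 base in 0.0696% of rises, 0.122% of falls and 0.194% of all windows. These letters were thus rare in promoter windows of every class, and elements farther away were not searched.

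Over all tested genes, 5230 were higher (30.9%) and 4948 lower (29.3%) in Rxra-OE than in V-OE, 60.2% together, and the libraries of the groups did not overlap in 6786 higher (40.1%) and 6520 lower genes (38.5%). Calls of at least 2-fold numbered 3505 (20.7%), with 2133 rises (12.6%) and 1372 falls (8.11%), and these shares are the background for the lists below. The median log2FC over all tested genes was 0.00407, and the middle 50% lay between -0.41 and 0.51. A test of a change beyond 2-fold, added after the data were seen, called 1192 rises and 701 falls.

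**Figure D1:**
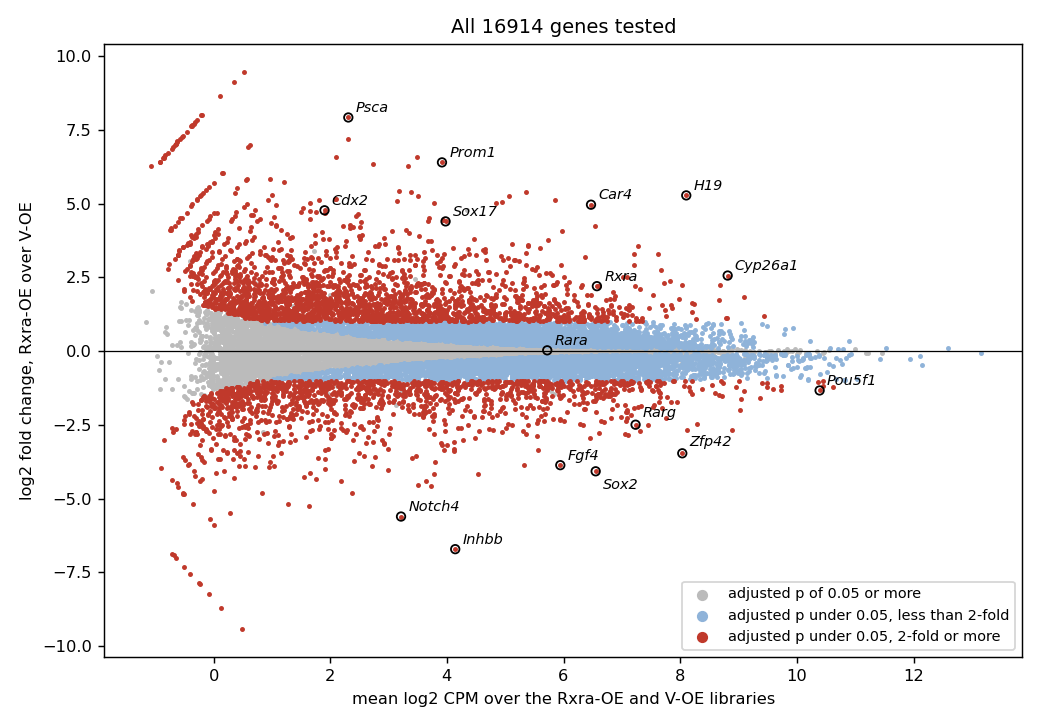
Log2 fold change of Rxra-OE over V-OE (vertical axis) against the mean log2 CPM of the 4 libraries (horizontal axis) for 16914 tested genes, coloured by adjusted p and size, with some genes circled and named. Rises of 2-fold or more (2133) outnumber falls (1372), Rxra lies at 2.20 and Rara at 0.02.

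Rxra itself (mm10, chromosome 2, 27676440 to 27762957) stood at 202 and 204 CPM in Rxra-OE and 40.5 and 47.8 CPM in Rara-OE, against 45.7 and 42.9 CPM in V-OE (log2FC 2.20 ± 0.07, adjusted p = 9.89e-34). Both Rxra-OE libraries were far above all 4 others, which matches the labels, and whether the reads come from the construct or the locus cannot be told apart in gene counts. Its partner Rara (chromosome 11, 98927818 to 98974942) was higher in the cells made to overexpress it but did not pass the test here, at 55.2 and 50.98 CPM in Rxra-OE and 104 and 111 CPM in Rara-OE, against 51.6 and 52.4 CPM in V-OE (log2FC 0.02 ± 0.08, adjusted p = 0.805). The Rxra-OE and V-OE libraries overlapped for this gene.

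The other receptor genes moved in opposite directions. Rarg (chromosome 15, 102234938 to 102257517), the RAR that predominates in undifferentiated stem cells, was lower, at 61.9 and 64.6 CPM in Rxra-OE and 207 and 213 CPM in Rara-OE, against 359 and 356 CPM in V-OE (log2FC -2.50 ± 0.05, adjusted p = 8.60e-42). Rarb (chromosome 14, 16430839 to 16819156), the inducible RAR, stood at 54.8 and 51.99 CPM in Rxra-OE and 24.7 and 27.7 CPM in Rara-OE, against 20.5 and 22.3 CPM in V-OE (log2FC 1.31 ± 0.10, adjusted p = 7.46e-17). Neither gene overlapped between Rxra-OE and V-OE, and both differed from Rara-OE too (-1.73 and 1.03 on the log2 scale, adjusted p = 3.43e-33 and 3.32e-13). Exons of Rarb overlap Top2b and Gm48162, and since it is not stated that counting used strand, reads of overlapping genes cannot be told apart, here and below. Rxrb, the more uniformly expressed RXR, was slightly higher at 70.9 and 69.4 CPM in Rxra-OE, against 49.3 and 47.7 CPM in V-OE (log2FC 0.53 ± 0.08, adjusted p = 3.44e-08). Rxrg had 1 and 0 counts in Rxra-OE and 1 and 4 in V-OE and was not tested. Of the 6 receptor genes 5 were tested, with 3 higher, 1 lower and a median log2FC of 0.53. The rises include Rxra itself, which the cells were made to overexpress.

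Levels were also scaled per kb of all annotated exons of a gene, a length that can exceed that of the expressed transcript. On this rough scale Rxra was highest among the tested receptors in Rxra-OE (37.2 CPM per kb). Rxrb (17.7), Rarg (14.8), Rara (12.2) and Rarb (10.1) came next. The length of the construct is not known, so the scaled level of Rxra in Rxra-OE is uncertain. In V-OE the order began with Rarg (83.9), then Rxrb (12.2) and Rara (11.9), which lay close together, Rxra (8.11) and Rarb (4.07).

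**Figure D2:**
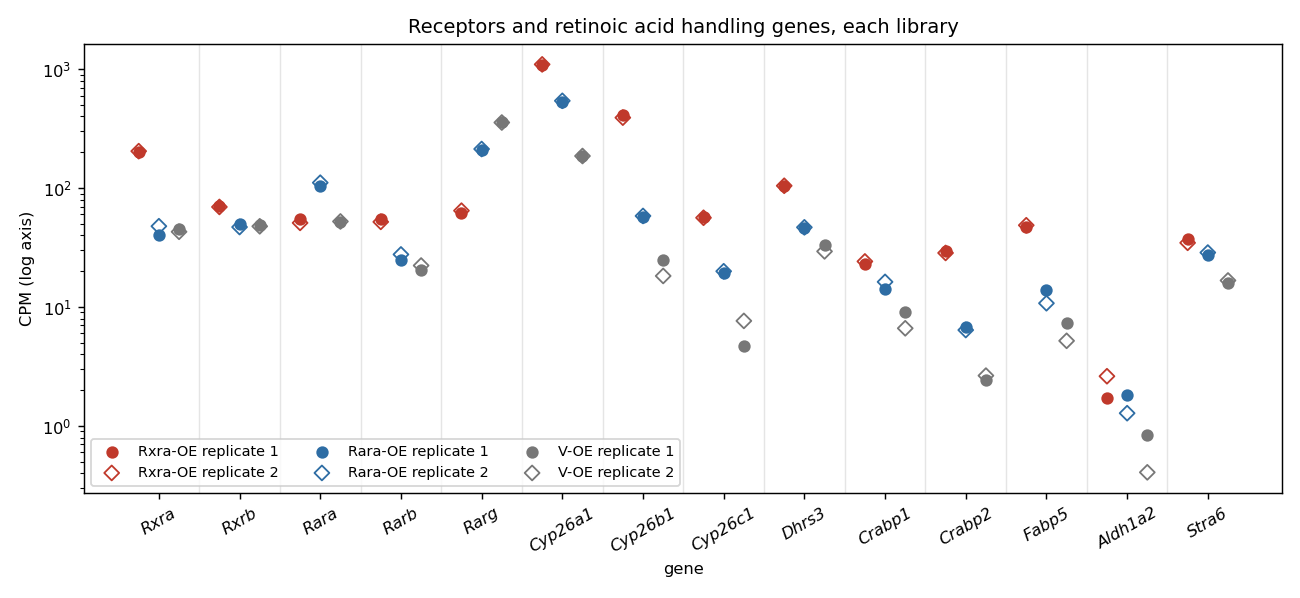
CPM on a log axis of receptor and RA handling genes in each of the 6 libraries (filled circles replicate 1, open diamonds replicate 2), with Rxra-OE, Rara-OE and V-OE from left to right in each gene. Rxra is high in Rxra-OE only among these groups, Rarg runs the other way, and Cyp26a1 reaches 1088 and 1096 CPM in Rxra-OE against 184 and 186 CPM in V-OE.

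Genes that take up, bind, make and break down RA were higher in Rxra-OE. Of 18 listed genes 16 were tested, 12 rose (10 of them at least 2-fold), 1 fell and 3 were not called, with a median log2FC of 1.66 against 0.00407 over all genes. The breakdown enzymes led. Cyp26a1 (mm10, chromosome 19, 37697798 to 37701536), the main RA hydroxylase of the early embryo, stood at 1088 and 1096 CPM in Rxra-OE and 529 and 541 CPM in Rara-OE, against 184 and 186 CPM in V-OE (log2FC 2.56 ± 0.04, adjusted p = 3.60e-47). Cyp26b1 (chromosome 6, 84571414 to 84593908), the hydroxylase of hindbrain and gonad, stood at 409.7 and 391 CPM in Rxra-OE and 56.97 and 58.3 CPM in Rara-OE, against 25.003 and 18.3 CPM in V-OE (log2FC 4.22 ± 0.07, adjusted p = 1.62e-36). Their relative Cyp26c1, the neighbour of Cyp26a1 on chromosome 19, had 57.1 and 56.3 CPM in Rxra-OE and 19.5 and 19.99 CPM in Rara-OE, against 4.71 and 7.65 CPM in V-OE (log2FC 3.17 ± 0.13, adjusted p = 1.03e-27). In all 3 genes the groups were ordered Rxra-OE, Rara-OE, V-OE with no overlap.

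Binding proteins rose as well. Crabp2, which carries RA to the nucleus, had 29.8 and 28.5 CPM in Rxra-OE, against 2.42 and 2.65 CPM in V-OE (log2FC 3.51 ± 0.19, adjusted p = 8.55e-23). Crabp1, its cytoplasmic relative, stood at 22.8 and 24.2 CPM in Rxra-OE, against 9.06 and 6.63 CPM in V-OE (log2FC 1.60), and Fabp5, a fatty acid carrier that also binds RA, at 47.1 and 48.7 CPM in Rxra-OE, against 7.37 and 5.20 CPM in V-OE (log2FC 2.95). No library of one group reached the other in these 3 genes. Stra6, the receptor that takes up retinol, was called with a log2FC of 1.14. Dhrs3, which returns retinal to retinol, was called with 1.73, and the retinol dehydrogenases Rdh10 and Rdh11 with 0.94 and 0.70. The retinal reductase Dhrs4 was the single fall (log2FC -0.46 ± 0.15, adjusted p = 0.00511). Of the enzymes that make RA, Aldh1a2 was low, at 1.74 and 2.62 CPM in Rxra-OE, against 0.846 and 0.408 CPM in V-OE (log2FC 1.84 ± 0.52, adjusted p = 0.00213), and its call was lost without V-OE replicate 2 (log2FC 1.37, adjusted p = 0.0665) or Rxra-OE replicate 2 (1.49, adjusted p = 0.0768). Aldh1a3 (0.74), the serum retinol carrier Rbp4 (0.16) and the retinol esterifying Lrat (-0.47) were not called (adjusted p = 0.321, 0.736 and 0.577), and Aldh1a1 and Bco1 had at most 6 counts in any library and were not tested.

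Beyond the Hox genes, 18 of 23 tested direct RA targets (25 listed) rose and 3 fell, with a median log2FC of 1.31. Cyp26a1, Dhrs3 and Rarb belong to this list and to those above. Zfp503, a zinc finger repressor, had 15.2 and 14.3 CPM in Rxra-OE and 1.71 and 2.69 CPM in Rara-OE, against 0.483 and 0.408 CPM in V-OE (log2FC 5.01 ± 0.33, adjusted p = 2.57e-19). Meis1, a TALE cofactor of Hox proteins, had 56.1 and 63.7 CPM in Rxra-OE and 26.4 and 27.2 CPM in Rara-OE, against 11.4 and 11.2 CPM in V-OE (log2FC 2.41 ± 0.11, adjusted p = 4.86e-26). Both were lowest in V-OE and highest in Rxra-OE, with no overlap. Stra8, the RA-induced gate of meiosis and one of the markers of the RA response, was higher by less, at 517 and 530.3 CPM in Rxra-OE and 283 and 279 CPM in Rara-OE, against 353 and 331 CPM in V-OE (log2FC 0.62). The 3 falls, named after their values were seen, were Dusp6 (-1.44), Lefty1 (-1.28) and Rarres2 (-0.63), a phosphatase of the ERK cascade, a Nodal inhibitor and the chemokine-like chemerin. Summed over the 5 RA response markers, Rxra-OE had 1800 to 1810 CPM, Rara-OE 968 to 976 CPM and V-OE 624 to 645 CPM.

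Hox genes, which give cells their place along the body axis and are opened by RA from the 3′ end of each cluster, were higher in the Hoxb cluster and among the tested Hoxc and Hoxd genes. Of 12 listed Hoxb genes 11 were tested, 10 rose, all of them at least 2-fold, and none fell (median log2FC 2.32). Hoxb1 (mm10, chromosome 11, 96365752 to 96368256), the hindbrain gene with well-known RA response elements, stood at 11.2 and 10.1 CPM in Rxra-OE and 5.02 and 3.20 CPM in Rara-OE, against 1.33 and 0.918 CPM in V-OE (log2FC 3.25 ± 0.30, adjusted p = 7.64e-14). Hoxb3 had 5.21 and 5.16 CPM in Rxra-OE and 1.51 and 3.20 CPM in Rara-OE, against 0.242 and 0.612 CPM in V-OE (log2FC 3.51 ± 0.46, adjusted p = 3.06e-09), Hoxb4 had 10.2 and 11.8 CPM in Rxra-OE and 5.33 and 3.97 CPM in Rara-OE, against 2.29 and 1.63 CPM in V-OE (log2FC 2.50 ± 0.26, adjusted p = 4.09e-12) and the most 5′ gene, Hoxb13, had 9.14 and 9.98 CPM in Rxra-OE and 3.42 and 2.05 CPM in Rara-OE, against 1.69 and 0.714 CPM in V-OE (log2FC 3.02 ± 0.32, adjusted p = 5.60e-12). All 4 lay higher in both Rxra-OE libraries than in any other library, at low levels. Other rises were those of Hoxb6 (2.47), Hoxb5 (2.32), Hoxb8 (2.02), the antisense Hoxb3os (1.81), Hoxb2 (1.61) and Hoxb7 (1.23). The call of Hoxb7, at 2.08 and 2.11 CPM in Rxra-OE, against 0.966 and 0.816 CPM in V-OE (adjusted p = 0.0236), was lost without any 1 of the 4 libraries (adjusted p = 0.0627, 0.138, 0.0722 and 0.0993 without V-OE replicate 1, V-OE replicate 2, Rxra-OE replicate 1 and Rxra-OE replicate 2) and with DESeq2 (0.131). Without V-OE replicate 2 the log2FC was 4.34 for Hoxb3 and 3.46 for Hoxb5, and without V-OE replicate 1 it was 3.72 for Hoxb13. Hoxb9, at 11.6 and 10.4 CPM in Rxra-OE, against 8.82 and 8.16 CPM in V-OE, was not called (log2FC 0.37 ± 0.19, adjusted p = 0.0848). Hoxb5os, with 13 and 9 counts in Rxra-OE against 0 and 1 in V-OE, was not tested. Hoxb3os overlaps exons of Hoxb2 and Hoxb3, and Hoxb5os those of Hoxb5.

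Hoxc and Hoxd genes were close to silent in V-OE. Of 18 listed, 10 were tested, 9 of these rose and none fell, and the median log2FC was 3.61. A gene of this list that passed the filter mostly did so through its Rxra-OE counts, so this median describes the tested members alone. Hoxc5 had 6.13 and 7.86 CPM in Rxra-OE, against 0.242 and 0 CPM in V-OE, a ratio of 64.5 (95% interval 17.5 to 537 from 146 and 2 counts). Hoxc8 had 3.59 and 1.94 CPM in Rxra-OE, against 0 and 0.102 CPM in V-OE, a ratio of 47.7 (8.21 to 1920), Hoxc9 4.28 and 4.31 CPM in Rxra-OE, against 0.121 and 0.204 CPM in V-OE, a ratio of 25.9 (8.58 to 128), and Hoxc6 1.97 and 2.28 CPM in Rxra-OE, against 0 and 0.204 CPM in V-OE, a ratio of 19.4 (5.07 to 165). These intervals cover counting error only, and no library of one group reached the other. The remaining tested member, Hoxd13, was not called (log2FC -0.82 ± 0.40, adjusted p = 0.0695), and the 8 untested members had at most 9 counts in any library.

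The Hoxa cluster showed no single direction. Of 12 tested members 4 rose and 3 fell, with a median log2FC of 0.01. Hoxa5 stood at 75.5 and 76.3 CPM in Rxra-OE, against 80.8 and 70.6 CPM in V-OE (log2FC 0.01 ± 0.07, adjusted p = 0.925) and Hoxa3 was lower, at 21.3 and 21.98 CPM in Rxra-OE, against 30.8 and 32.3 CPM in V-OE (log2FC -0.54 ± 0.11, adjusted p = 1.97e-05).
Small rises were called for Hoxa9 (0.64) and Hoxa10 (0.73), and falls for Hoxa4 (-0.43) and Hoxa11 (-1.40). Each of these calls was lost without at least 1 of the libraries. Without V-OE replicate 1 those of Hoxa9, Hoxa10 and Hoxa11 were lost (adjusted p = 0.0627, 0.0679 and 0.207), without V-OE replicate 2 those of Hoxa4 and Hoxa11 (0.0901 and 0.0595), without Rxra-OE replicate 1 that of Hoxa11 (0.223), and without Rxra-OE replicate 2 those of Hoxa4 and Hoxa9 (0.0688 and 0.255), so that 2 rises were counted in the list without V-OE replicate 1. With DESeq2 3 members were higher and 1 lower, without the calls of Hoxa9, Hoxa4 and Hoxa11 (0.115, 0.0665 and 0.145). The log2FC of Hoxa11 was -2.12 without Rxra-OE replicate 2. Hoxa2 (-0.52, adjusted p = 0.0653) and Hoxa7 (-0.28, adjusted p = 0.0626) were called lower only without V-OE replicate 2 (adjusted p = 0.0168 and 0.0155). Hoxa6 and Hoxa13 had log2FC of 0.07 and 0.00 (adjusted p = 0.901 and 0.999). Hoxa11os overlaps exons of Hoxa11.

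Of the Hox cofactors and Cdx genes, 11 of 12 were tested, 7 rose and none fell (1 fell without V-OE replicate 2 or Rxra-OE replicate 1), with a median log2FC of 0.54. Cdx2, a caudal homeobox gene of trophectoderm and posterior embryo, had 17.9 and 16.1 CPM in Rxra-OE and 1.71 and 2.43 CPM in Rara-OE, against 0.846 and 0.408 CPM in V-OE (log2FC 4.77 ± 0.30, adjusted p = 4.39e-20), and its relative Cdx1 had 364 and 348 CPM in Rxra-OE and 124 and 139.8 CPM in Rara-OE, against 101 and 91.4 CPM in V-OE (log2FC 1.89 ± 0.06, adjusted p = 3.19e-34). For both genes Rxra-OE stood above the other groups without overlap. The cofactor Meis3 was called with a log2FC of 1.64. Of the 20 genes that flank the Hoxb cluster, 5 rose and 11 fell (median log2FC -0.2). The largest changes there were those of Sp6 (1.81), Prr15l (1.59), Ttll6 (-1.73) and Tbx21 (-1.51). The rises numbered 3 without V-OE replicate 2 or Rxra-OE replicate 2, and 2 with DESeq2. The call of Prr15l was lost without V-OE replicate 1 (adjusted p = 0.0827) or Rxra-OE replicate 1 (0.0682) or with DESeq2 (0.0607), and that of Tbx21 without V-OE replicate 1 (0.121) or Rxra-OE replicate 2 (0.205) or with DESeq2 (0.0979). Tbx21 had a log2FC of -2.14 without Rxra-OE replicate 1. Around Cyp26a1, 12 of 16 listed genes were tested, 5 rose and 4 fell (median 0.08), with Myof at 1.14 and Tbc1d12 at 0.92 next after the Cyp26 genes themselves.

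Pluripotency genes were lower in Rxra-OE. All 24 listed naive pluripotency genes were tested, 20 fell (16 of them at least 2-fold), 1 rose and 3 were not called, with a median log2FC of -2.07. Sox2 (mm10, chromosome 3, 34650405 to 34652461), the core factor that partners Oct4, had 22.2 and 23.2 CPM in Rxra-OE and 232 and 228 CPM in Rara-OE, against 394 and 374 CPM in V-OE (log2FC -4.08 ± 0.06, adjusted p = 1.91e-48). Tcl1, a cofactor of AKT kinase in stem cells, had 0.810 and 0.930 CPM in Rxra-OE and 6.83 and 9.10 CPM in Rara-OE, against 26.2 and 23.6 CPM in V-OE (log2FC -4.80 ± 0.25, adjusted p = 4.67e-24). Prdm14, a repressor of differentiation and of DNA methylation genes, had 1.50 and 2.20 CPM in Rxra-OE and 26.02 and 19.7 CPM in Rara-OE, against 31.9 and 30.2 CPM in V-OE (log2FC -4.02 ± 0.20, adjusted p = 4.50e-25). In these 3 genes the Rxra-OE libraries lay below every other library, and Rara-OE lay between. Fgf4, the growth factor made by stem cells, had 15.7 and 16.2 CPM in Rxra-OE and 121 and 135 CPM in Rara-OE, against 235 and 233 CPM in V-OE (log2FC -3.87 ± 0.07, adjusted p = 9.87e-44).

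The naive genes used as markers of stem cells fell as well. Pou5f1, which encodes Oct4, had 831 and 857 CPM in Rxra-OE and 1660.4 and 1665 CPM in Rara-OE, against 2155 and 2108 CPM in V-OE (log2FC -1.34 ± 0.04, adjusted p = 2.51e-37), and Nanog had 184 and 189.5 CPM in Rxra-OE and 990.2 and 1046 CPM in Rara-OE, against 1226 and 1156 CPM in V-OE (log2FC -2.67 ± 0.04, adjusted p = 1.19e-47). Zfp42 (-3.47), Utf1 (-2.81) and Esrrb (-2.67) also fell. Summed with Sox2, the 6 stem cell markers had 1280 to 1310 CPM in Rxra-OE, 4020 to 4090 CPM in Rara-OE and 5520 to 5730 CPM in V-OE. In bulk RNA, fewer cells of a type and less of an RNA per cell cannot be told apart. Named after their values were seen, Lifr, the LIF receptor subunit, was the single rise (0.51), and Klf4 (0.06), Nr5a2 (-0.14) and Dppa3 (-0.10) were not called (adjusted p = 0.280, 0.395 and 0.893).

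Genes of the formative and primed states were mostly lower too. Of 22 listed 18 were tested, 14 fell (9 at least 2-fold) and 4 rose, with a median log2FC of -0.98. Foxd3, a repressor needed to leave naive pluripotency, had 2.78 and 2.45 CPM in Rxra-OE and 31.5 and 36.8 CPM in Rara-OE, against 58.2 and 51.3 CPM in V-OE (log2FC -4.39 ± 0.15, adjusted p = 9.03e-32). Pou3f1, or Oct6, had 0.347 and 0.761 CPM in Rxra-OE and 10.9 and 10.5 CPM in Rara-OE, against 11.4 and 11.7 CPM in V-OE (log2FC -4.27 ± 0.31, adjusted p = 7.25e-18). Foxd3 and Pou3f1 were close to lost in Rxra-OE, while Rara-OE lay nearer to V-OE. The zinc finger genes Zic2 (-3.32) and Zic5 (-3.17) fell as well. The rises numbered 2 without V-OE replicate 1 or with DESeq2, and the log2FC of Pou3f1 was -5.00 without Rxra-OE replicate 2. Otx2, Fgf5, Lef1 and Nkx6-3 had too few counts to be tested.

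Genes of FGF and Notch signalling moved in both directions, with more falls than rises. Among FGF ligands, receptors and ERK feedback genes, 20 of 21 were tested, 12 fell and 4 rose (median log2FC -0.68). Etv4, an ETS factor induced by ERK, had 37.5 and 37.03 CPM in Rxra-OE and 155 and 164 CPM in Rara-OE, against 258 and 251 CPM in V-OE (log2FC -2.77 ± 0.06, adjusted p = 6.39e-41). Fgf15 fell (-3.19), whereas the receptor gene Fgfr2 rose, with 100.2 and 106 CPM in Rxra-OE and 65.3 and 53.9 CPM in Rara-OE, against 12.7 and 11.5 CPM in V-OE (log2FC 3.09 ± 0.10, adjusted p = 2.29e-33). In Etv4 and Fgfr2 the groups were ordered without overlap, with Rara-OE between Rxra-OE and V-OE. Of Notch pathway genes 14 of 19 were tested, 4 rose and 6 fell (median -0.36). The receptor gene Notch4 had 1.16 and 1.27 CPM in Rxra-OE and 11.4 and 11.7 CPM in Rara-OE, against 62.1 and 58.4 CPM in V-OE (log2FC -5.61 ± 0.17, adjusted p = 6.55e-34), the ligand gene Dll1 a log2FC of -3.63, the glycosyltransferase gene Mfng -1.95 and the ligand gene Jag1 1.48. Both Rxra-OE libraries had under 2 CPM of Notch4. Dll1 had 0.347 and 1.44 CPM in Rxra-OE, against 12.7 and 11.6 CPM in V-OE, and its log2FC was -5.07 without Rxra-OE replicate 2, where that of Fgf15 was -4.03.

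Enzymes of DNA methylation and demethylation were lower in 8 of 9 genes (median log2FC -0.62), and Dnmt1, the maintenance methyltransferase, named after its value was seen, was slightly higher (0.13). This single rise was lost without V-OE replicate 1 or Rxra-OE replicate 1. Tet1, which oxidises methylcytosine, had 62.6 and 60.2 CPM in Rxra-OE and 178 and 164 CPM in Rara-OE, against 285 and 309 CPM in V-OE (log2FC -2.28 ± 0.06, adjusted p = 3.56e-38). Tet2 fell (-1.35), as did Dnmt3l (-1.44), the cofactor of de novo methylation whose exons overlap Aire, and Uhrf1 (-0.64). All 22 glycolysis and hypoxia genes were tested, with 15 lower, 4 higher and a median of -0.64. The largest falls there were those of Ndrg1 (-1.70), the lactate exporter gene Slc16a3 (-1.42), Aldoa (-1.34) and Eno3 (-1.25). Ndrg1 had a log2FC of -2.30 without Rxra-OE replicate 1.

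Genes of extraembryonic endoderm, a lineage that stem cells can enter in RA, were higher. Of 26 listed 23 were tested, 21 rose (18 at least 2-fold), 1 fell and 1 was not called, with a median log2FC of 2.38. Sox17 (mm10, chromosome 1, 4490931 to 4497354), an endoderm determinant, had 72.6 and 67.7 CPM in Rxra-OE and 24.8 and 31.4 CPM in Rara-OE, against 3.26 and 3.37 CPM in V-OE (log2FC 4.39 ± 0.14, adjusted p = 3.85e-33). Foxa2, a pioneer factor of endoderm, had 7.98 and 7.86 CPM in Rxra-OE and 2.91 and 2.31 CPM in Rara-OE, against 0.604 and 0.408 CPM in V-OE (log2FC 3.95 ± 0.39, adjusted p = 5.23e-13), and Gata6, the driver of primitive endoderm, had 111 and 110.2 CPM in Rxra-OE and 108 and 113 CPM in Rara-OE, against 22.6 and 23.7 CPM in V-OE (log2FC 2.26 ± 0.08, adjusted p = 2.82e-31). Sox17 and Foxa2 were highest in Rxra-OE, whereas Gata6 overlapped between Rxra-OE and Rara-OE. Srgn, a proteoglycan core protein of parietal endoderm, had 196 and 209 CPM in Rxra-OE and 33.4 and 29.6 CPM in Rara-OE, against 5.19 and 5.30 CPM in V-OE (log2FC 5.27 ± 0.10, adjusted p = 9.87e-44), and Plat, the tissue plasminogen activator, had 23.3 and 21.5 CPM in Rxra-OE and 5.83 and 5.89 CPM in Rara-OE, against 2.29 and 0.714 CPM in V-OE (log2FC 3.94 ± 0.25, adjusted p = 6.94e-20; 4.94 without V-OE replicate 1 and 3.27 without V-OE replicate 2). Dab2, an endocytic adaptor, stood at 47.2 and 47.7 CPM in Rxra-OE and 30.1 and 33.4 CPM in Rara-OE, against 2.17 and 4.69 CPM in V-OE (log2FC 3.74), and Gata4 and Sox7 at 3.12 and 1.37 on the log2 scale. Fst, the activin antagonist follistatin, was the single fall (log2FC -2.74 ± 0.25, adjusted p = 2.19e-14), and a second fall appeared without V-OE replicate 1 or Rxra-OE replicate 2.

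The summed level of the 6 endoderm markers was 268 to 270 CPM in Rxra-OE, 214 to 229 CPM in Rara-OE and 34.4 to 36.8 CPM in V-OE. In Rara-OE, 20 members of the endoderm list were called higher than in the same V-OE libraries. Between Rxra-OE and Rara-OE, 11 of the 23 tested members were higher in Rxra-OE and 8 lower. Afp, Ttr and Thbd, of which the first 2 mark mature visceral endoderm, had too few counts to be tested.

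**Figure D3:**
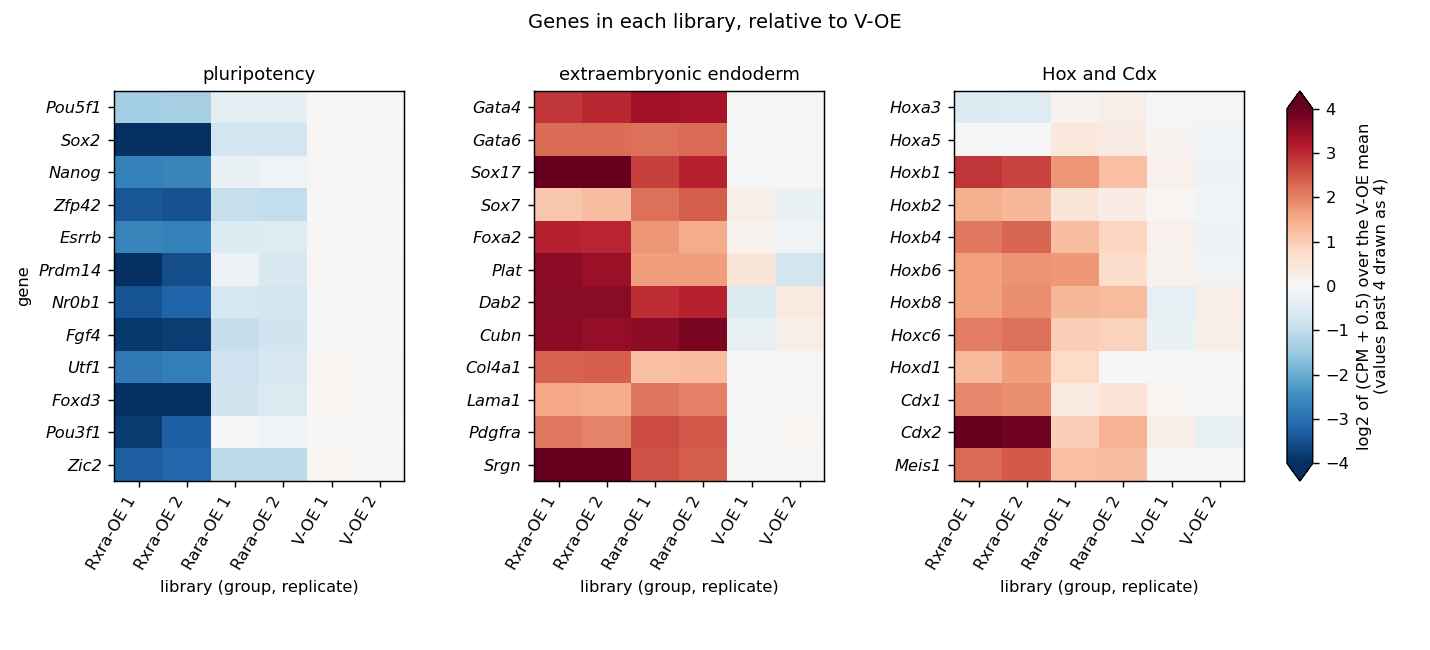
Genes of pluripotency, extraembryonic endoderm and the Hox and Cdx families (rows) in the 6 libraries (columns, Rxra-OE left, Rara-OE in the middle, V-OE right), coloured by the log2 of CPM + 0.5 over the V-OE mean, with values past 4 drawn as 4. Sox2 and Foxd3 are darkest blue in Rxra-OE, Sox17 and Srgn darkest red there, and Gata4 and Sox7 are redder in Rara-OE.

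Some trophectoderm genes rose, others did not. Of 19 listed 16 were tested, 8 rose, all at least 2-fold, 2 fell and 6 were not called (median log2FC 1.37). Besides Cdx2, Krt7 had 14.1 and 15.3 CPM in Rxra-OE and 4.22 and 4.23 CPM in Rara-OE, against 0.604 and 0.510 CPM in V-OE (log2FC 4.70 ± 0.31, adjusted p = 1.38e-19) and Krt18, a keratin of simple epithelia, had 251 and 259 CPM in Rxra-OE and 218 and 216 CPM in Rara-OE, against 14.3 and 16.01 CPM in V-OE (log2FC 4.07 ± 0.07, adjusted p = 1.20e-45). Gcm1, a labyrinth trophoblast factor, was called with 3.62. Rxra-OE was highest of the 3 groups in Cdx2, Krt7 and Krt18. In Rara-OE, however, 11 of the 16 tested members were called higher than in V-OE and none lower (median log2FC 1.26). Between Rxra-OE and Rara-OE, 7 members were higher in Rxra-OE and 4 lower. The defining marker Gata3 was not among the rises, at 9.14 and 7.35 CPM in Rxra-OE and 7.54 and 9.23 CPM in Rara-OE, against 7.25 and 9.69 CPM in V-OE (log2FC -0.06 ± 0.20, adjusted p = 0.806), Elf5 had at most 1.27 CPM in any library, and the summed level of the 4 markers was 39.5 to 42.5 CPM in Rxra-OE, 13.7 to 16.5 CPM in Rara-OE and 9.18 to 10.6 CPM in V-OE. The 2 falls became 1 without V-OE replicate 1 or Rxra-OE replicate 2, or with DESeq2.

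Genes of the 2-cell-like state, a rare state of stem cell cultures marked by the Zscan4 cluster, were higher at low levels. Of 18 listed 10 were tested and 8 rose (median log2FC 1.78), but the count was 4 without V-OE replicate 1, without Rxra-OE replicate 2 and in DESeq2. Zscan4f had 5.21 and 5.07 CPM in Rxra-OE and 0.301 and 0.641 CPM in Rara-OE, against 0.846 and 0.612 CPM in V-OE (log2FC 2.81 ± 0.42, adjusted p = 7.03e-08) and Zscan4d 13.7 and 11.2 CPM in Rxra-OE and 1.005 and 1.03 CPM in Rara-OE, against 3.62 and 2.75 CPM in V-OE (log2FC 1.96 ± 0.24, adjusted p = 3.19e-10). All 10 tested members were called higher in Rxra-OE than in Rara-OE. Zscan4f, Usp17lc and Pramef25 passed the filter only through their Rxra-OE counts, so the calls and the median of this list describe its tested members alone. The calls of Usp17lc (1.96) and Pramef25 (1.97) were lost without V-OE replicate 1 (adjusted p = 0.0989 and 0.0506) or Rxra-OE replicate 2 (0.0684 and 0.065) or with DESeq2 (0.0734 and 0.0603), and Usp17lc had 2.79 without V-OE replicate 2. Zscan4 genes are near-identical copies, so the split of reads among them is uncertain.

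**Figure D4:**
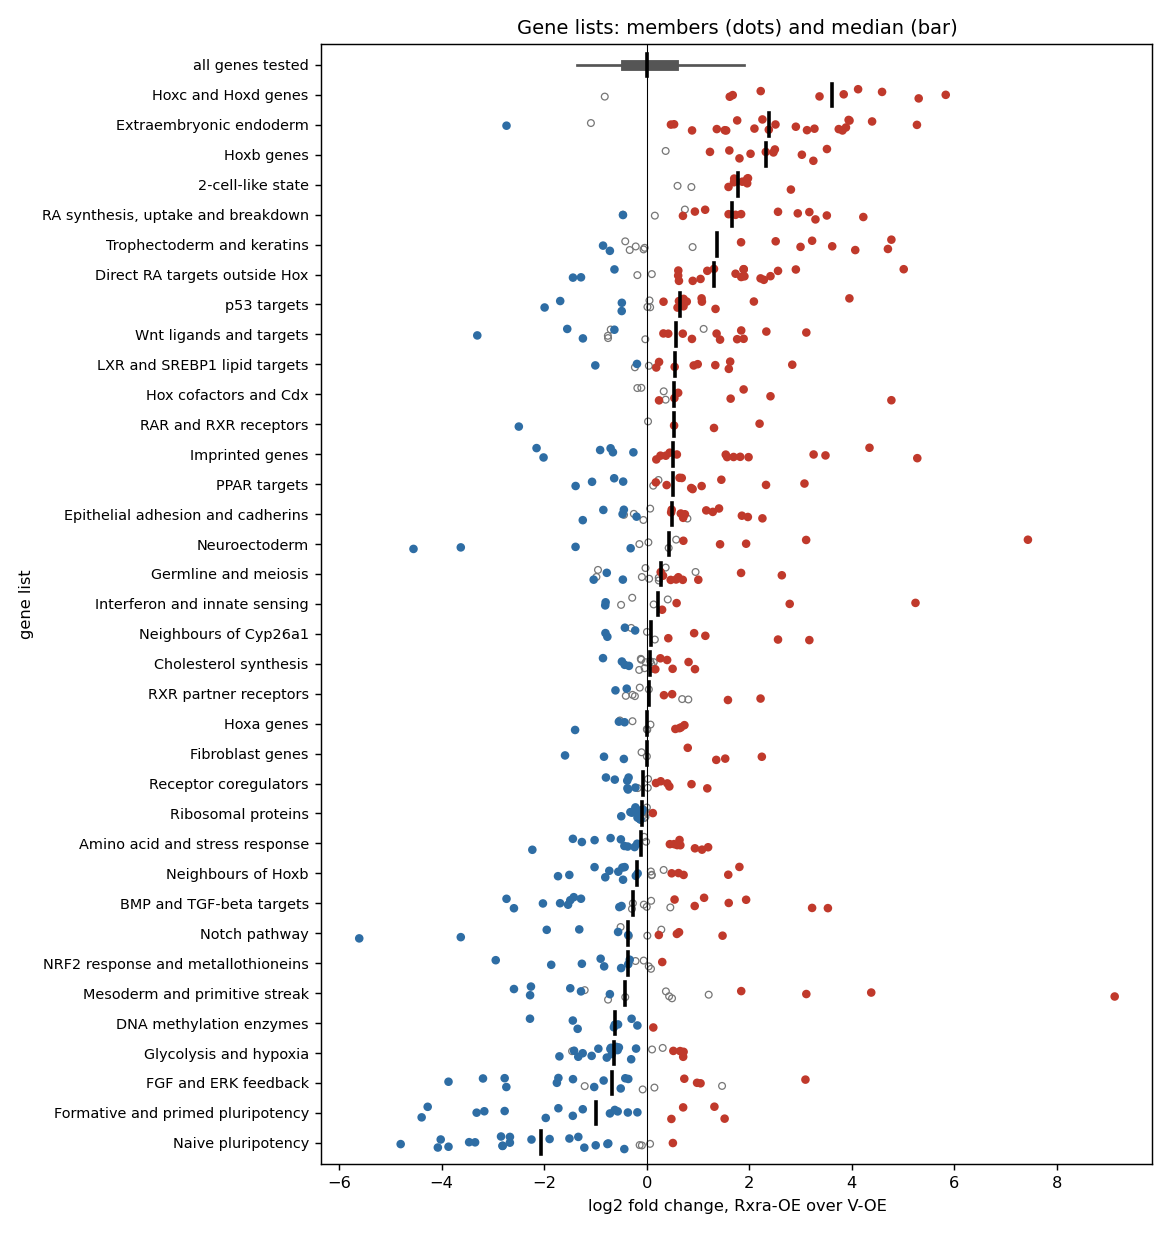
Log2 fold change of Rxra-OE over V-OE (horizontal axis) for each tested member of the gene lists (red called higher, blue called lower, open not called), with the median of each list as a vertical bar. The top row shows the median, the middle 50% (box) and the 5th to 95th percentile (line) of all 16914 tested genes. Points of genes with 0 to 3 counts in V-OE rest on few reads and on the default prior count of the fit. The medians of naive pluripotency (-2.07) and RA handling (1.66) lie on opposite sides of the median of all genes (0.00407).

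The largest rises among genes of moderate level were led by Psca, a GPI-anchored surface antigen, with 51.6 and 61.4 CPM in Rxra-OE and 1.31 and 1.03 CPM in Rara-OE, against 0.242 and 0.204 CPM in V-OE (log2FC 7.92 ± 0.26, adjusted p = 2.78e-33). Ccdc42, a coiled-coil gene of the sperm tail, had 46.6 and 53.3 CPM in Rxra-OE and 0.201 and 0.769 CPM in Rara-OE, against 0.121 and 0.510 CPM in V-OE (log2FC 7.18 ± 0.26, adjusted p = 2.67e-30), and Ephb1, an ephrin receptor gene, had 12.8 and 12.1 CPM in Rxra-OE and 0.201 and 0.256 CPM in Rara-OE, against 0.121 and 0.306 CPM in V-OE (log2FC 5.73 ± 0.41, adjusted p = 3.18e-18). Ccdc42 and Ephb1 stayed under 1 CPM in all Rara-OE and V-OE libraries. Thsd4, a matrix protein gene, had 102 and 101 CPM in Rxra-OE and 13.5 and 17.04 CPM in Rara-OE, against 1.45 and 0.714 CPM in V-OE (log2FC 6.57 ± 0.17, adjusted p = 2.69e-38), Prom1, which encodes CD133, had 129.6 and 133 CPM in Rxra-OE and 16.7 and 13.2 CPM in Rara-OE, against 1.33 and 1.73 CPM in V-OE (log2FC 6.40 ± 0.14, adjusted p = 4.22e-41), and Zfp36l3, an RNA-binding protein gene of the placenta, had 83.98 and 81.4 CPM in Rxra-OE and 19.5 and 18.1 CPM in Rara-OE, against 0.846 and 1.22 CPM in V-OE (log2FC 6.28 ± 0.17, adjusted p = 2.39e-37). In these 3 genes Rara-OE lay between the other groups. The mitochondrial carrier Slc25a21 (6.58), the pantetheinase Vnn1 (6.34), the cytokine subunit Il12b (5.42) and the sialyltransferase St3gal1 (5.39) complete the 12 with H19 and Srgn. The fold changes of several of these genes rest on few V-OE reads. Without V-OE replicate 1 the log2FC of Ccdc42 was 6.58. Without V-OE replicate 2 it was 8.54, with 6.53 for Ephb1, 5.47 for Slc25a21, 7.18 for Vnn1 and 6.59 for Il12b. Slc25a21 had 0 CPM in V-OE replicate 2, so no fold is given for it without V-OE replicate 1. Exons of Slc25a21 overlap Pax9, and those of Prom1 the model Gm16401.

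H19 (mm10, chromosome 7, 142575529 to 142578143), an imprinted noncoding RNA that hosts Mir675, had 1686 and 1728 CPM in Rxra-OE and 967 and 971 CPM in Rara-OE, against 47.5 and 40.99 CPM in V-OE (log2FC 5.28 ± 0.05, adjusted p = 4.50e-58). Meg3, the noncoding RNA of the Dlk1 domain, had 6.71 and 7.27 CPM in Rxra-OE and 0.402 and 0.769 CPM in Rara-OE, against 0.483 and 0.204 CPM in V-OE (log2FC 4.34 ± 0.45, adjusted p = 3.22e-12), and Igf2, the growth factor next to H19, had 68.7 and 69.7 CPM in Rxra-OE and 76.8 and 75.7 CPM in Rara-OE, against 7.13 and 7.34 CPM in V-OE (log2FC 3.25 ± 0.11, adjusted p = 1.76e-32). H19 and Meg3 were highest in Rxra-OE, whereas Igf2 stood higher in Rara-OE, where its difference from Rxra-OE was not called (log2FC -0.14 ± 0.07, adjusted p = 0.119). Meg3 had a log2FC of 5.01 without V-OE replicate 1. Mirg was called with 3.49. Of 22 imprinted genes 20 were tested, 14 rose (9 at least 2-fold) and 6 fell, with a median log2FC of 0.52.

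The largest fall was that of Inhbb, the beta B subunit of activin and inhibin, with 1.62 and 1.61 CPM in Rxra-OE and 55.8 and 57.2 CPM in Rara-OE, against 173 and 169 CPM in V-OE (log2FC -6.71 ± 0.12, adjusted p = 6.56e-45). Grm2, a metabotropic glutamate receptor gene, had 0.463 and 0.338 CPM in Rxra-OE and 8.94 and 9.10 CPM in Rara-OE, against 17.997 and 13.3 CPM in V-OE (log2FC -5.27 ± 0.32, adjusted p = 6.49e-21), and Hbegf, an EGF receptor ligand gene, had 6.13 and 4.73 CPM in Rxra-OE and 47.6 and 43.8 CPM in Rara-OE, against 94.6 and 98.3 CPM in V-OE (log2FC -4.17 ± 0.11, adjusted p = 1.13e-36). All 3 were lowest in Rxra-OE and highest in V-OE, with no overlap. Tubb3, the neuronal beta-tubulin, had 1.39 and 3.13 CPM in Rxra-OE and 18.1 and 23.1 CPM in Rara-OE, against 58.1 and 54.2 CPM in V-OE (log2FC -4.55 ± 0.17, adjusted p = 9.84e-25; -5.32 without Rxra-OE replicate 2). The arginine methyltransferase gene Prmt8 (-5.19), the stem cell noncoding RNA Platr10 (-4.57), the peptide transporter gene Slc15a1 (-4.40) and the semaphorin mediator gene Crmp1 (-4.35) were the other falls of this size, beside Notch4, Tcl1, Foxd3 and Pou3f1.

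Other receptor partners of RXR gave no single direction. Of 16 listed receptor genes 13 were tested, 4 rose, 2 fell and 7 were not called, against 60.2% called over all genes, with a median log2FC of 0.04. Nr2f2, the orphan receptor COUP-TFII and itself an RA target, had 4.97 and 5.83 CPM in Rxra-OE and 2.11 and 1.79 CPM in Rara-OE, against 0.846 and 1.43 CPM in V-OE (log2FC 2.22 ± 0.36, adjusted p = 4.81e-07), and Vdr, the vitamin D receptor gene, had 5.21 and 5.16 CPM in Rxra-OE and 2.01 and 2.82 CPM in Rara-OE, against 2.05 and 1.43 CPM in V-OE (log2FC 1.58 ± 0.34, adjusted p = 5.40e-05). Ppard was called with 0.49 and Nr4a1 with -0.61. Nr2f2 was raised in Rxra-OE above both other groups without overlap. Of the 16 receptor coregulators 6 rose and 7 fell (median -0.08), led by Nrip1 (1.18), a ligand-dependent corepressor, Tbl1x (0.87), Tbl1xr1 (-0.80) and the demethylase gene Kdm6a (-0.62).

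Targets of the partner receptors moved in both directions. Of LXR and SREBP1 lipid targets 13 of 14 were tested, 9 rose and 2 fell (1 fell without Rxra-OE replicate 2 or with library totals alone as the scale), with a median log2FC of 0.54. Apoe, the lipoprotein component, had 523 and 526 CPM in Rxra-OE and 283 and 291 CPM in Rara-OE, against 183 and 164 CPM in V-OE (log2FC 1.60 ± 0.05, adjusted p = 3.94e-35), and Arl4c, a small GTPase, had 119 and 129 CPM in Rxra-OE and 60.99 and 68.05 CPM in Rara-OE, against 18.1 and 16.6 CPM in V-OE (log2FC 2.84 ± 0.09, adjusted p = 5.70e-34). Mylip, which degrades the LDL receptor, and the sterol exporter Abcg1 were called with 1.63 and 1.34. Of PPAR targets 16 of 18 were tested, 10 rose and 4 fell (median 0.51). Plin2, a lipid droplet coat protein, had 129.8 and 134 CPM in Rxra-OE and 61.9 and 55.999 CPM in Rara-OE, against 28.4 and 24.6 CPM in V-OE (log2FC 2.33 ± 0.08, adjusted p = 1.29e-31), while Acot1 (1.45) and Ucp2 (-1.39) were called with opposite signs. Cholesterol synthesis genes, with 6 higher and 4 lower of 19 tested, moved less (median 0.07, none by 2-fold), with Dhcr7 at 0.94, Idi1 at -0.85 and Fdft1 at 0.50.

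Germ layer genes gave no single direction. Of mesoderm and primitive streak genes 17 of 20 were tested, 4 rose and 6 fell (median log2FC -0.42). Lhx1, a LIM homeobox gene, had 7.52 and 7.35 CPM in Rxra-OE, against 0 and 0 CPM in V-OE and was at least 44.8-fold higher in Rxra-OE (a floor of 3 counts over the group). Foxf1 had 1.39 and 1.44 CPM in Rxra-OE, against 0.121 and 0 CPM in V-OE, a ratio of 25.6 (95% interval 4.25 to 1050), Wnt3a a log2FC of 3.11 and Lefty2 -2.59. Lhx1 and Foxf1 did not overlap between the groups, and the medians of this list and the next are the same with Lhx1 and Pax3 at their bounds. Of neuroectoderm genes 13 of 20 were tested, 5 rose (3 without V-OE replicate 2) and 4 fell (median 0.43). Pax3 had 2.20 and 2.37 CPM in Rxra-OE, against 0 and 0 CPM in V-OE and was at least 13.8-fold higher, and the falls included Tubb3 and Dll1. The 4 neuron markers summed to 6.25 to 7.61 CPM in Rxra-OE, 20.9 to 25.4 CPM in Rara-OE and 57.1 to 60.4 CPM in V-OE. Tubb3 made up 1.39 and 3.13 CPM of it in Rxra-OE and 18.1 and 23.1 CPM in Rara-OE, against 58.1 and 54.3 CPM in V-OE. Map2, which encodes a microtubule-associated protein, had 4.05 and 3.55 CPM in Rxra-OE and 2.41 and 2.18 CPM in Rara-OE, against 2.17 and 2.86 CPM in V-OE. Neurog2 and Dcx were at or under 0.845 CPM in every library.

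Wnt ligands and targets were tested for 20 of 25 genes, with 11 higher, 4 lower and a median log2FC of 0.56, among them Dkk1 (2.33) and Notum (-3.31), both secreted Wnt inhibitors (Dkk1 3.48 without V-OE replicate 2). Of BMP and TGF-beta genes 23 of 24 were tested, 7 rose and 10 fell (median -0.27), Bmp2 with 3.70 and 3.04 CPM in Rxra-OE and 0.402 and 1.15 CPM in Rara-OE, against 0.362 and 0.204 CPM in V-OE (log2FC 3.53 ± 0.58, adjusted p = 5.82e-07) and Gata2 with a log2FC of 3.22. Of epithelial adhesion genes 21 of 22 were tested, 11 rose and 5 fell (median 0.49), with Cldn6 at 2.26, Cdh22 at 1.97 and Ocln at 1.85. With DESeq2 7 rose and 3 fell, and the falls were also 3 without V-OE replicate 1 or Rxra-OE replicate 2 and with library totals alone as the scale. The call of Zeb2 (1.41) was lost without V-OE replicate 1 (log2FC 0.82, adjusted p = 0.314) or Rxra-OE replicate 1 (0.198) or with DESeq2 (0.141), and its log2FC was 2.68 without V-OE replicate 2.

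Of 20 p53 targets 13 rose and 4 fell (median log2FC 0.64). Perp, a desmosomal effector of p53, had 64.1 and 75.2 CPM in Rxra-OE and 27.7 and 26.5 CPM in Rara-OE, against 16.7 and 16.2 CPM in V-OE (log2FC 2.09 ± 0.10, adjusted p = 5.62e-25). The death receptor gene Fas had 3.12 and 2.45 CPM in Rxra-OE, against 0.121 and 0.204 CPM in V-OE, a ratio of 16.5 (95% interval 5.36 to 82.4), while Pmaip1 (-1.99) and Gdf15 (-1.69) fell. Amino acid and stress response genes were split into 8 higher and 10 lower of 20 (median -0.12), with Asns at 1.20, Chac1 at -2.23 and Mthfd2 at -1.44. Of NRF2 targets and metallothioneins 13 of 16 were tested, 8 fell and 1 rose (median -0.36), with Mt3 at -2.95, Gsta3 at -1.86, Slc7a11 at -1.27 and Mt2 at -0.90.

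Of interferon genes 10 of 20 were tested, 4 rose and 2 fell (median log2FC 0.22). Oasl2 had a ratio of 46.8 (95% interval 8.05 to 1880) and Ifit2 one of 7.36 (2.25 to 38.1), with no call for Ifit2 without V-OE replicate 1 (adjusted p = 0.0507), while the sensor Ddx58 (-0.81) and Ifitm3 (-0.80) fell. Of 21 germline and meiosis genes 9 rose and 3 fell (median 0.27). The meiotic cohesin gene Rec8 had 134 and 135 CPM in Rxra-OE and 38.4 and 33.4 CPM in Rara-OE, against 20.9 and 22.3 CPM in V-OE (log2FC 2.63 ± 0.08, adjusted p = 1.35e-33), Tfap2c a log2FC of 1.84, Taf7l 1.01 and Smc1b -1.04. Of 22 ribosomal protein genes 12 fell and 1 rose (none without V-OE replicate 2 or Rxra-OE replicate 1), by small amounts (median -0.09, Rpl13a -0.50, Rpl11 -0.32, Rpl3 -0.29, Rplp0 -0.22), and with library totals alone as the scale 3 were higher and 6 lower.

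Fibroblast genes gave no single direction, and 6 of the 15 listed had too few counts to be tested. Of the 9 tested, 4 rose (1 without Rxra-OE replicate 2 or with DESeq2, and 2 without any 1 of the other libraries) and 3 fell (median log2FC 0.00). Pdgfrb, a receptor of platelet-derived growth factor, had 125 and 119.5 CPM in Rxra-OE and 49.9 and 53.8 CPM in Rara-OE, against 26.9 and 24.7 CPM in V-OE (log2FC 2.24 ± 0.08, adjusted p = 5.29e-31), and Thy1 was called with -1.59. The call of Col6a1 (1.35) was lost without each of the 4 libraries (adjusted p = 0.0711 to 0.139) and with DESeq2 (0.137), and that of Col6a2 (1.53) without any but V-OE replicate 1 (adjusted p = 0.0818 to 0.514) and with DESeq2 (0.198). Col6a2 had a log2FC of 0.62 without V-OE replicate 2 and 3.52 without V-OE replicate 1. The 6 fibroblast markers summed to 6.25 to 7.52 CPM in Rxra-OE, 6.63 to 6.66 CPM in Rara-OE and 3.02 to 4.79 CPM in V-OE, with Lum and Postn at 0 in all 6 libraries.

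Set against Rara-OE directly, 7979 genes (47.2%) differed, 4027 higher in Rxra-OE (23.8%) and 3952 lower (23.4%). This compares 2 overexpressed receptors whose own RNA rose by different amounts (2.20 for Rxra and 1.05 for Rara on the log2 scale). Of the 2133 genes at least 2-fold higher in Rxra-OE than in V-OE, 1628 were also called higher than in Rara-OE, 13 lower, and 492 were not called. Of the 1372 falls, 1011 were called lower than in Rara-OE, 2 higher, and 359 were not called. Both sets were picked by their values in the same Rxra-OE libraries. The splits are thus tilted in advance toward a larger distance and are no independent result of the test against Rara-OE. In that test Cyp26b1 (log2FC 2.80 ± 0.06, adjusted p = 5.98e-32) and Zfp503 (log2FC 2.77 ± 0.25, adjusted p = 4.01e-14) were higher and Sox2 (log2FC -3.34 ± 0.06, adjusted p = 3.16e-43) lower in Rxra-OE. Against the same V-OE libraries, Rara-OE had 4829 calls (28.6%) and a median absolute log2FC of 0.225, where Rxra-OE had 0.451.

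The medians of the lists against V-OE stood as follows for Rxra-OE and Rara-OE, which share these controls. RA handling genes had 1.66 in Rxra-OE and 0.869 in Rara-OE, direct RA targets 1.31 in Rxra-OE and 0.458 in Rara-OE, and Hoxb genes 2.32 in Rxra-OE and 1.25 in Rara-OE. Hoxa genes had 0.0051 in Rxra-OE and 0.222 in Rara-OE. Naive pluripotency genes had -2.07 in Rxra-OE and -0.367 in Rara-OE. Extraembryonic endoderm genes had 2.38 in Rxra-OE and 2.01 in Rara-OE. By direct test 11 of 16 RA handling genes and 7 of 11 Hoxb genes were higher in Rxra-OE than in Rara-OE and none lower, and 21 of 24 naive pluripotency genes were lower.

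Removal of Rxra was measured in other libraries, with Rxra-KO cells set against WT. Rxra fell to 17.2 ± 1.57 CPM in Rxra-KO, against 42.1 ± 5.49 CPM in WT (SD, n = 2 each; log2FC -1.29 ± 0.27, adjusted p = 0.0264), so RNA of the gene was still counted in the knockout. These libraries were more variable, and 407 of 16445 tested genes were called (2.47%), 210 higher (1.28%) and 197 lower (1.2%), against 170 higher and 258 lower with library totals alone as the scale. The count rests on single libraries: it was 73 without WT replicate 1, 21 without WT replicate 2 and 149 without Rxra-KO replicate 2. Calls of single genes in Rxra-KO were not refitted with a library left out.

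Some of the RA handling, RA target and Hoxb genes that were higher in Rxra-OE than in V-OE were lower in Rxra-KO. Of the RA handling genes 5 of 14 tested fell and none rose, of the direct RA targets outside Hox 4 of 22 fell and 2 rose, and of the Hoxb genes 2 of 11 fell and none rose, against 1.2% lower and 1.28% higher over all genes. Cyp26a1 had 77.1 ± 17.7 CPM in Rxra-KO, against 538 ± 17.2 CPM in WT (log2FC -2.80 ± 0.29, adjusted p = 0.00209), and Cyp26b1 had 1.80 ± 0.151 CPM in Rxra-KO, against 39.4 ± 1.11 CPM in WT (log2FC -4.44 ± 0.47, adjusted p = 0.00101). Both genes thus fell in Rxra-KO and rose in Rxra-OE. Cyp26c1 (-2.20), Stra6 (-1.30), Cdx1 (-1.96), Hoxb6 (-3.29), Cdh22 (-3.15) and Pdgfrb (-1.79) did likewise. Hoxb1 (log2FC -1.56 ± 0.64, adjusted p = 0.272) and Rarb (log2FC -0.93 ± 0.30, adjusted p = 0.131) were not called in the knockout. Nor were Crabp2 (log2FC -0.39 ± 0.61, adjusted p = 0.816), Fabp5 (log2FC -0.30 ± 0.37, adjusted p = 0.760), Zfp503 (log2FC -0.82 ± 0.62, adjusted p = 0.573) and Meis1 (log2FC 0.06 ± 0.27, adjusted p = 0.946). Hoxa5 (-1.56) and Hoxb9 (-1.31) fell there but were not called in Rxra-OE, and Hoxa3 fell in both (-1.10 in Rxra-KO and -0.54 in Rxra-OE).

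In the other direction, Foxd3 had 45.4 ± 13.2 CPM in Rxra-KO, against 10.6 ± 1.30 CPM in WT (log2FC 2.10 ± 0.28, adjusted p = 0.00325), and Tet1 had 298 ± 45.1 CPM in Rxra-KO, against 119 ± 8.91 CPM in WT (log2FC 1.32 ± 0.15, adjusted p = 0.000725). Pou3f1 (1.55), Sox2 (0.69), Hbegf (1.42), Dnmt3l (1.08), Slc16a3 (0.99), Ddx58 (1.94), Mt2 (1.72) and Mt3 (2.81) also rose in Rxra-KO and fell in Rxra-OE. Apoe rose in both (0.75 in Rxra-KO and 1.60 in Rxra-OE). Pou5f1 (log2FC 0.31 ± 0.14, adjusted p = 0.300) and Nanog (log2FC -0.38 ± 0.18, adjusted p = 0.313) were not called in the knockout.

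Over the 15976 genes tested in both tables, 30.3% were called higher and 30.4% lower in Rxra-OE. Of 197 genes lower in Rxra-KO, 139 (70.6%) were higher in Rxra-OE and 23 (11.7%) lower. The 139 include Rxra itself, the gene altered by design in both. Of 205 genes higher in Rxra-KO, 142 (69.3%) were lower in Rxra-OE and 31 (15.1%) higher. The 139 were 2.87% of the 4844 rises in Rxra-OE and the 142 were 2.93% of its 4853 falls. The calls in Rxra-KO were uneven over the genome, with 7 rises and 53 falls on chromosome 2, where Rxra lies, and 44 rises and 4 falls on chromosome 10. With chromosomes 2, 6, 8, 10, 16 and Y left out, a choice made after the data were seen, 83 of 114 falls (72.8%) were higher and 89 of 122 rises (73%) lower in Rxra-OE, against 30.9% higher and 30.5% lower over the genes that remain. Of the genes named above with opposite signs, Cdh22 (chromosome 2), Cyp26b1 (6), Mt2 and Mt3 (8), and Tet1 and Dnmt3l (10) lie on chromosomes left out here.

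**Figure D5:**
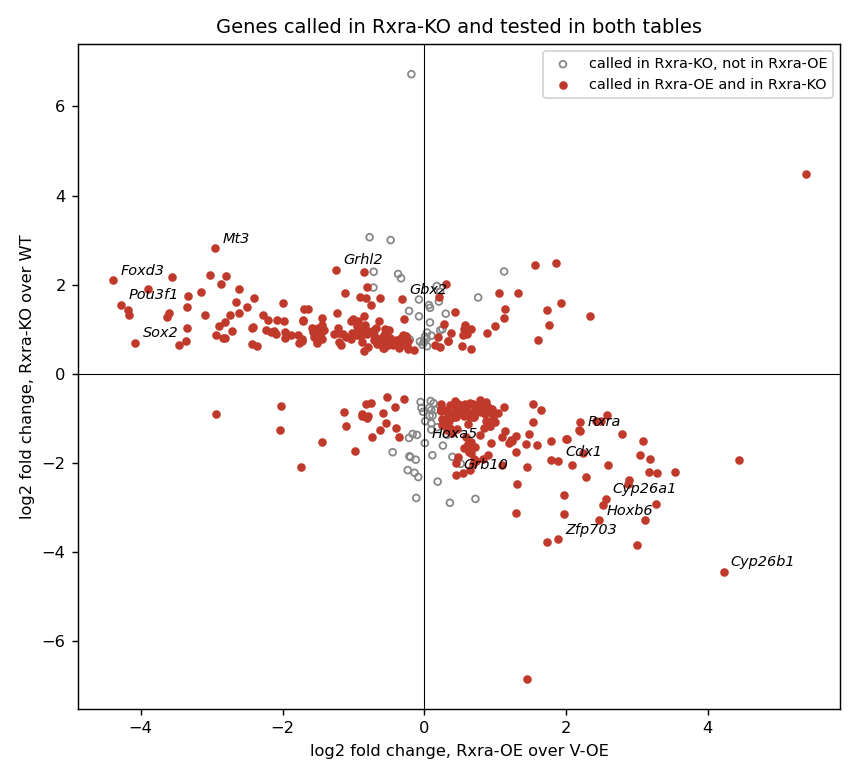
Log2 fold change of Rxra-KO over WT (vertical axis) against that of Rxra-OE over V-OE (horizontal axis) for the genes called in Rxra-KO and tested in both tables, filled where Rxra-OE was called too. Zfp703, Grb10, Gbx2 and Grhl2 were named after their values were seen. Cyp26b1 (4.22 in Rxra-OE, -4.44 in Rxra-KO) and Foxd3 (-4.39 in Rxra-OE, 2.10 in Rxra-KO) lie in opposite corners.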

How the data were processed

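The deposited tables hold raw read counts per gene. The mm10 build appears in the submitters' processing notes beside MACS2 2.2.7.1, Bowtie2 2.3.1, DESeq2 1.18.1, HTSeq 0.9.1 and HISAT2 2.1.0, with no step assigned to any of them, and strand use is not stated. The overexpression table was fitted with edgeR 4.0.16 (R 4.3.3, limma 3.58.1) over its 3 groups (6 libraries), the knockout table over its 4 groups (8 libraries), with filterByExpr (minimum count 10), TMM scaling, the quasi-likelihood test and Benjamini-Hochberg adjustment at 0.05. Fitted log2 fold changes use edgeR's default prior count, so those of genes with few counts can be very large. A prior count of 2 was used only for log2 CPM values. Of the names, 26 were date-like and 2 repeated, and all were kept. Positions are from GENCODE vM21 (mm10). On simulated counts of 16487 genes this fit recovered 16, 32, 46 and 50 of 50 genes changed 1.25-, 1.5-, 2- and 4-fold. Only 200 genes were changed in that simulation, all picked above a minimum mean count. Recovery with as large a share of changed genes as called here was not measured.

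Besides receptor, RA handling, Hoxa and Hoxb genes, the text names the 12 largest non-overlapping rises and falls with a mean log2 CPM of at least 1, cell type markers, and up to 4 called members with the largest change of each of 36 lists. Members and lists were chosen with earlier results of these data known. Alternatives were DESeq2 1.42.0, library totals, no filter, fewer groups, a replicate block and leaving out each library. Some genes that this rule names are not reported here. The H3K27Ac, 4C and enhancer knockout data were not used here.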

Additional observations from a re-analysis of the deposited data

How the results depend on the processing

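The count of 10178 genes called between Rxra-OE and V-OE was 7956 with DESeq2, 10142 with library totals (59.9% higher, against 51.4% with TMM), 10014 without a filter and 10260 with only these groups fitted, and it ranged from 8765 to 9214 when 1 library was left out. It fell to 5795 with the dispersions of the knockout table and to 1893 in a test of a change beyond 2-fold, both added after the data were seen, and 3505 calls were of at least 2-fold (1893 in that test). The common biological coefficient of variation was 16.1% in the knockout table and 4.56% in the overexpression table. The fit with the knockout dispersions also used a likelihood-ratio test in place of the quasi-likelihood test. The share of each in the first drop was not tested. Rxra kept a log2FC between 2.15 and 2.30. The 7979 calls against Rara-OE ranged from 5475 to 8053, and from 6391 to 7019 when 1 library was left out. The 407 calls of Rxra-KO against WT were 654 with DESeq2, 1084 without a filter, 428 with library totals and 586 with only these groups fitted, and ranged from 21 to 361 when 1 library was left out. Of these, 210 were higher and 197 lower, against 170 and 258 with library totals and 59 and 90 without Rxra-KO replicate 2. None of the 168 named genes called between Rxra-OE and V-OE changed sign under the alternatives run on them, but the fold of 28 moved by over 1.5 times when 1 library was left out.

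Same-numbered replicates did not deviate together (correlations of -0.0544, -0.0544 and -0.0708 over 6632 genes). With the replicate number as a block the counts were 10005 against V-OE (3480 at 2-fold), 7751 against Rara-OE and 314 for Rxra-KO, and all 177 named genes stayed on their side of the threshold. With DESeq2 11 of these lost their call, with the knockout table's dispersions 15, and beyond 2-fold 47. The spread between replicates was 1.95 to 2.42 times the counting variance in the overexpression groups and 8.38 to 15.7 times in the knockout table, and depth limits low genes, whose ratios have wide counting intervals.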
